A study of Mus musculus with 16 samples.

Results

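The 44 genes described here drive DNA replication and mitosis. They were chosen by name, as 14 S-phase genes and 30 mitotic genes, among the 34947 gene names on the arrays. Of the 44 genes 41 were followed, namely 14 of the 14 S-phase genes and 27 of the 30 mitotic genes, because at least 1 of their probes was well above background on 4 or more of the 16 arrays. The 41 probes used, the brightest kept probe of each gene, were well above background on 16 of 16 arrays. The 3 genes not followed were Aurkb, the kinase of the chromosomal passenger complex, with its probe well above background on 0 arrays, Ttk, the spindle checkpoint kinase Mps1, also on 0 arrays, and Cenpf, a kinetochore protein, on 2 arrays. In all 25675 genes passed this filter and were tested.

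Cells prepare for replication by loading the Mcm helicase onto origins with the help of Cdc6 and Cdt1, and the E2F factors switch on these genes and the enzymes that make deoxynucleotides at the start of S phase. E2f7 and E2f8 are themselves E2F targets and repress the other targets as S phase goes on. Genes for mitosis are switched on later, in G2, when B-Myb and Foxm1 join the MuvB complex at cell cycle homology region (CHR) promoter elements, where the DREAM complex keeps them silent in resting cells. In a resting adult lung few cells divide, and tissue macrophages, lymphocytes, endothelium and alveolar type 2 cells are among those that can.

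Lung RNA of female mice was measured with 1 single-colour Agilent array per sample. ARF-DTR mice carry the receptor for diphtheria toxin (DT) under the Arf promoter, which is active in senescent cells, so that DT can kill cells in which that promoter is on. The groups were ARF-DTR at 2 months without injection (n = 4), ARF-DTR at 12 months with PBS (n = 4), ARF-DTR at 12 months with DT (n = 4), wild type at 12 months with PBS (n = 2) and wild type at 12 months with DT (n = 2). DT was given by intraperitoneal injection, 50 microgram per kg, every 2 weeks over 1 month, and the wild type groups show what DT does without the transgene. Nothing in the labels ties samples to individual mice, and p-values therefore speak only of the spread among samples, some of which may be technical. Groups follow titles, source names and treatments, which matched, because the free description of wild type PBS replicate 1 mentions DT and both wild type DT descriptions omit it.

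Values are log2 signals minus the 75th percentile of the array, which lay between 613 and 1088 intensity units. Slide 1 held the 2-month and the PBS arrays of ARF-DTR (75th percentile 980 ± 74.4, SD, n = 8), and slide 2 held the DT arrays of ARF-DTR and both wild type groups (665 ± 44.4, SD, n = 8). Age, DT in wild type, and DT-treated ARF-DTR against either wild type group were therefore compared within a slide. Of these, only DT in wild type also stayed within the same array row of its slide, and the other groups compared lay in different rows. The DT and PBS arrays of ARF-DTR lie on different slides, and there slide and treatment cannot be told apart. Every marker gene listed for alveolar type 2 and type 1 cells, club cells, ciliated cells and endothelium passed the filter, so the labelled tissue had its defining markers. In whole lung, more dividing cells and more RNA per dividing cell cannot be told apart.

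The promoters of the S-phase and the mitotic genes carried different short sequences. RefSeq promoter windows on GRCm38.p6, from 250 bases before to 50 bases after the start site, were at hand for 38 of the 44 genes, and none was used for Ccna2, Aurkb, Tpx2, Kif20a, Foxm1 and Mcm4. A CHR core (TTTGAA or TTCGAA, either strand) was in 20 of 25 mitotic windows (80%), in 3 of 13 S-phase windows (23.1%) and in 21.7% of the windows of 27025 genes. An E2F sequence (TTTCCCGC, TTTGGCGC, TTTCGCGC or TTTGCCGC, either strand) was in 1 of 25 mitotic windows (4%), in 7 of 13 S-phase windows (53.8%) and in 2.6% of all. CCAAT was in 84% of the mitotic, 69.2% of the S-phase and 41.1% of all windows, and a CHR core together with CCAAT was in 76%, 23.1% and 8.61%. Matches of letters are a description and show no binding. The 250 bases upstream of the start site are printed below, 5′ to 3′ on the strand of the gene, for 3 mitotic genes that rose with DT and for E2f7 and Mcm6. Capitals mark CHR, CCAAT and E2F matches, which may overlap one another, and a match on the other strand appears as its reverse complement, so that CCAAT there reads ATTGG.
Gas2l3, chr10:89443968-89444217, minus strand: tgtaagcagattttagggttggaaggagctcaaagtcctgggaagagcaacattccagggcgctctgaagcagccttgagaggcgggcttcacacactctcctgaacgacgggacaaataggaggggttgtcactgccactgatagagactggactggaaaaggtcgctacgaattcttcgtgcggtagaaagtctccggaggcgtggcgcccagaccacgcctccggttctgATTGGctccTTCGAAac
Ube2c, chr2:164769679-164769928, plus strand: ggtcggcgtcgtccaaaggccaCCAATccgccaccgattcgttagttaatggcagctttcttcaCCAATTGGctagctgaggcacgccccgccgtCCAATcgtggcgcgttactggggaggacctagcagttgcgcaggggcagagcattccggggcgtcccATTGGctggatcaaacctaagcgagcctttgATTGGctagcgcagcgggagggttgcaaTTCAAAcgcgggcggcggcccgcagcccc
Prc1, chr7:80294226-80294475, plus strand: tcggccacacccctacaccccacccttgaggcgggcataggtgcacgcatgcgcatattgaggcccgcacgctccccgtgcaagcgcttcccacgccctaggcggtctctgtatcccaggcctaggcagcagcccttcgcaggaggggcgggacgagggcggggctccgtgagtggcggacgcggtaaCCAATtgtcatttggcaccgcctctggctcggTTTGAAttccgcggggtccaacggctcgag
E2f7, chr10:110745189-110745438, plus strand: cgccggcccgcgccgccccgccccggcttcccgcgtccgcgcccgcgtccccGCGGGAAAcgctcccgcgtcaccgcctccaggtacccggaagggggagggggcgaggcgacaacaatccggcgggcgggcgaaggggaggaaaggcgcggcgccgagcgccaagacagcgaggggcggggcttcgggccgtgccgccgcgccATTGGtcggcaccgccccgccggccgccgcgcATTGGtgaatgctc
Mcm6, chr1:128359706-128359955, minus strand: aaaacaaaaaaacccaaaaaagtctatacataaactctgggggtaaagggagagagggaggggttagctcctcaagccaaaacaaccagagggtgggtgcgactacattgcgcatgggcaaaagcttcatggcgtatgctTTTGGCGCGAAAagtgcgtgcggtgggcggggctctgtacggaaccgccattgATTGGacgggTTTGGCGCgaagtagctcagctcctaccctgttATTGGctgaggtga
In Gas2l3 the CHR core TTCGAA lay 8 to 3 bases before the start site, with CCAAT on the other strand 17 to 13 bases before it. In Ube2c the CHR core was on the other strand, 29 to 24 bases before the start, behind 6 CCAAT matches. Prc1 has a pair of start sites in RefSeq, and in the window shown the CHR core lay 30 to 25 bases before the start. The E2f7 window had an E2F match 198 to 191 bases before the start, and Mcm6 had 3 E2F matches, of which 2 overlap.

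With DT in wild type lung, compared within slide 2, nearly all members had positive differences, larger for the mitotic than for the S-phase genes. All 27 mitotic genes followed had a positive log2 change, between 0.18 and 1.14, and their median was 0.67, or 1.59-fold, beside -0.02 for all genes tested. The S-phase genes had a median of 0.16, with 12 of 14 positive. After adjustment over all genes 2 of the 41 members passed, both higher, where 0.175% of all genes passed and 0.0545% passed as higher. With an unadjusted p under 0.05, 20 of 27 mitotic and 2 of 14 S-phase genes were reached, all higher, against 5.21% of all genes higher at that level. The arrays of the 2 groups did not overlap, with DT higher, for 24 of 27 mitotic and 8 of 14 S-phase genes, against 18.8% of all genes. The median of the mitotic genes lay between 0.51 and 0.80 when any 1 of the 4 arrays was left out, lowest without wild type DT replicate 2.

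Gas2l3, which links actin and microtubules in late mitosis, gave -3.47 and -3.60 with PBS and -2.09 and -2.70 with DT in wild type. Both DT arrays were above both PBS arrays, and the rise was 1.14 ± 0.18 on the log2 scale, or 2.20-fold (limma, adjusted p = 0.0316). E2f7, the late S-phase repressor, gave -3.08 and -3.48 with PBS and -2.34 and -2.13 with DT. Its rise was 1.05 ± 0.17, or 2.06-fold (limma, adjusted p = 0.0372). Both calls rest on few arrays, since E2f7 and Gas2l3 together gave 0 or 1 call when 1 of the 4 arrays was left out. They were lost, with 0 calls, under normexp background correction, with the mean of all kept probes, and in a fit of the 4 wild type arrays alone.

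A second probe did not bear out the E2f7 value. The probe used lies at chr10:110224331-110224390 (mm9) and the other kept E2f7 probe at chr10:110219255-110219314, both on the plus strand and both well above background on 16 arrays. The other probe gave 0.07 with DT in wild type and by -0.43 with DT in ARF-DTR, where the probe used gave 1.05 and 0.39. For Gas2l3 the second kept probe gave 0.46 with DT in wild type and 0.53 with DT in ARF-DTR. The probe used gave 1.14 and 0.42, of the same sign but much larger in wild type. Of the 11 members with several kept probes, 9 had probes of 1 sign with DT in wild type and 7 with DT in ARF-DTR. The second probes of Mki67 (0.63) and Ube2c (0.84) gave nearly the values of the probes used in wild type (0.66 and 0.71). The 2 dimmer Cdk1 probes gave -0.76 and 1.48 there, beside 0.72 for the probe used.

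The other mitotic genes in wild type lung did not pass one by one. Mki67, the Ki-67 protein that coats mitotic chromosomes, gave 1.11 and 0.94 with PBS and 1.53 and 1.82 with DT (0.66 ± 0.31, limma adjusted p = 0.404). Top2a, the topoisomerase that untangles replicated DNA, gave -2.12 and -2.03 with PBS and -1.39 and -1.23 with DT (0.77 ± 0.34, limma adjusted p = 0.364). For both genes the DT arrays were above the PBS arrays. Cdk1, the mitotic kinase, gave -2.09 and -2.38 against -1.67 and -1.35 (0.72 ± 0.28, limma adjusted p = 0.301), and its partner Ccnb1 gave -1.54 and -1.77 against -1.09 and -0.97 (0.62 ± 0.37, limma adjusted p = 0.523). By role, the medians were 0.63 for the cyclins, Cdk1 and Foxm1 (5 genes), 0.66 for kinases and checkpoint proteins (6), 0.59 for Cdc20 and Ube2c, 0.81 for spindle motors and microtubule proteins (8), 0.71 for Cenpe, Top2a and Mki67, and 0.54 for the cytokinesis genes Anln, Ect2 and Racgap1. The lowest mitotic values were those of Bub1, a checkpoint kinase (0.18 ± 0.21), and Foxm1, the transcription factor of G2 (0.27 ± 0.20).

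The S-phase genes in wild type lung mostly had smaller differences, though their range, from -0.44 to 1.05, was wide. The 8 licensing and helicase genes had a median of 0.16, with Mcm2 at -0.11 and -0.34 with PBS and -0.12 and 0.05 with DT, so that its groups overlapped (0.19 ± 0.16, limma adjusted p = 0.685). Mcm5 gave 0.42 and 0.16 with PBS and 0.31 and 0.76 with DT (0.25 ± 0.22, limma adjusted p = 0.714). Pcna, the sliding clamp of the polymerases, gave 4.10 and 4.07 against 4.22 and 4.14 (0.09 ± 0.12, limma adjusted p = 0.813). E2f1 gave -0.19 and -0.33 against -0.06 and -0.28 (0.09 ± 0.12, limma adjusted p = 0.843). Beside E2f7, the S-phase gene with the highest value was Rrm2, the regulated subunit of ribonucleotide reductase (0.76 ± 0.30), and Cdc6 had the lowest (-0.44 ± 0.37). The second kept Cdc6 probe, which was dimmer, gave 0.10, the other sign.

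**Figure D1:**
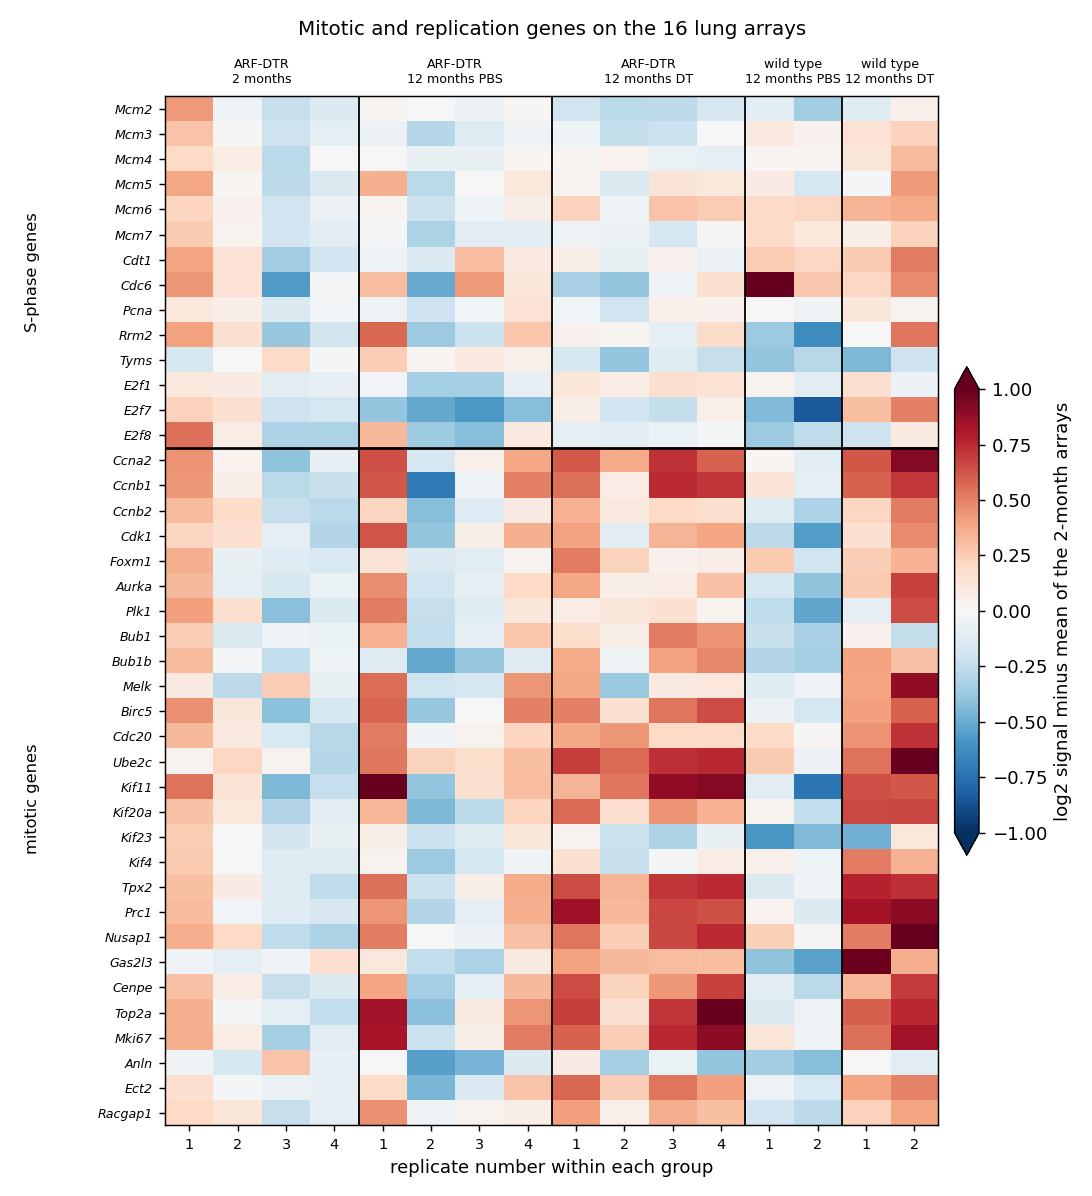
Heat map of the 41 member genes (rows, S-phase above the line and mitotic below) on the 16 arrays (columns, by group and replicate number). Colour is the log2 signal minus the mean of the 4 arrays at 2 months, with red higher and values past 1 in either direction drawn at the end of the scale. The mitotic rows are red on the 2 wild type DT arrays and on most ARF-DTR DT arrays, and also on ARF-DTR PBS replicate 1.

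DT-treated ARF-DTR lung was set against wild type PBS lung, again within slide 2, and most mitotic genes were at higher values in it. These groups differ in genotype, DT and array row, which cannot be told apart here. Their arrays also serve in the DT comparisons within each genotype, so this comparison is no separate evidence. The mitotic median was 0.54, or 1.46-fold, with 26 of 27 positive, the S-phase median was -0.00 (7 of 14 positive), and all genes tested had -0.00. Of the 41 members 3 passed, all higher, where 5.55% of all genes passed and 2.14% passed as higher. They were Gas2l3 (0.80 ± 0.16, limma adjusted p = 0.0151), E2f7 (0.56 ± 0.15, limma adjusted p = 0.0449) and Bub1b, the checkpoint protein BubR1 (0.62 ± 0.17, limma adjusted p = 0.0471). The second kept Gas2l3 probe gave 0.26 in this comparison. Bub1b gave -1.47, -1.87, -1.44 and -1.36 on the ARF-DTR DT arrays and -2.13 and -2.17 on the wild type PBS arrays. The groups did not overlap, with ARF-DTR DT higher, for 22 of 27 mitotic and 4 of 14 S-phase genes, against 16.1% of all genes. They did not overlap with ARF-DTR DT lower for 4 S-phase genes, all of licensing and helicase, and 0 mitotic genes, against 17.9% of all genes. Without 1 array the mitotic median lay between 0.47 and 0.63, and the number of members called between 0 and 4, with 0 where either wild type PBS array was left out. The E2f7 call was lost without any 1 of the 6 arrays (limma, highest adjusted p = 0.328), and its other probe gave -0.11. The Bub1b call was lost in 5 of the 6 cases, all but without ARF-DTR DT replicate 2, and the Gas2l3 call in 2 of 6, without either wild type PBS array.

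DT-treated ARF-DTR lung was next set against DT-treated wild type lung. The mitotic median was nearer to 0 there than against wild type PBS, and the S-phase median was further from 0. Of the 41 members 0 passed (limma), where 0.923% of all genes did, and 8 had an unadjusted p under 0.05, against 15.6% of all genes. The mitotic median was -0.12, with 24 of 27 genes lower in ARF-DTR, and the S-phase median was -0.20, with 12 of 14 lower. The 8 licensing and helicase genes were all lower in ARF-DTR, from -0.48 (Cdc6) to -0.17 (Mcm5), and 7 of the 8 had groups that did not overlap, against 10.2% of all genes in that direction. The second kept Cdc6 probe gave -0.26. Mcm3 gave 1.93, 1.73, 1.76 and 1.97 in ARF-DTR and 2.12 and 2.21 in wild type (-0.31 ± 0.12, limma adjusted p = 0.232). For Mki67 (-0.07 ± 0.27), Top2a (-0.03 ± 0.29) and Cdk1 (-0.06 ± 0.25) the difference was smaller than its standard error. Bub1 stood the other way, with -2.16, -2.27, -1.82 and -1.89 in ARF-DTR and -2.29 and -2.58 in wild type (0.40 ± 0.18, limma adjusted p = 0.300). The mitotic median was -0.22 without wild type DT replicate 1 and -0.01 without wild type DT replicate 2.

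**Figure D2:**
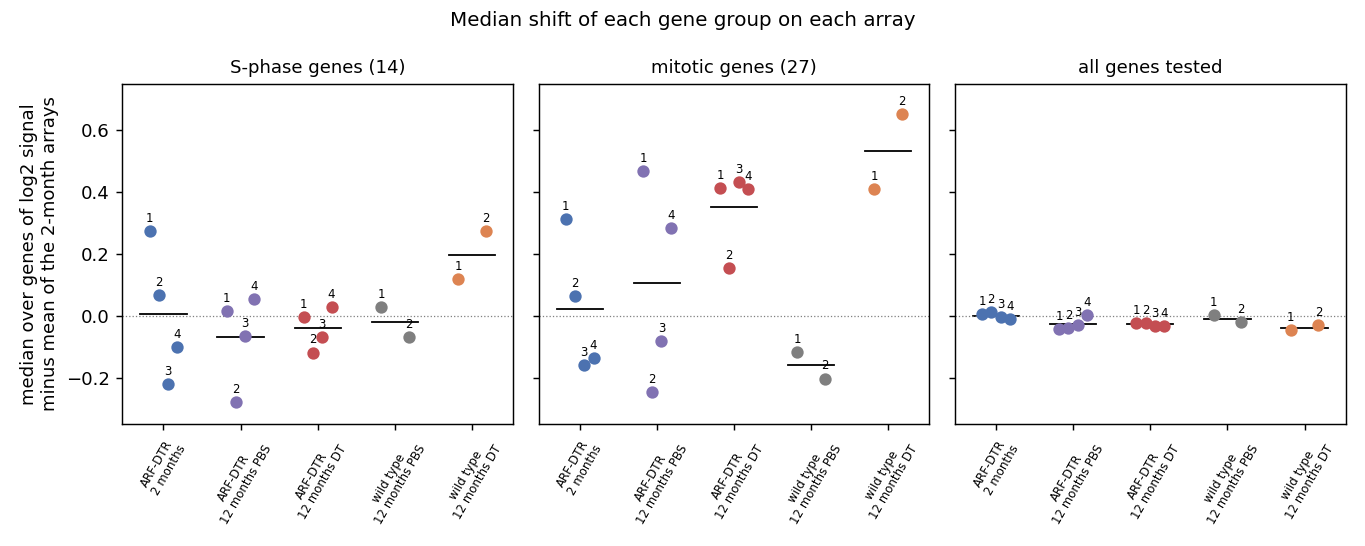
Median over the 14 S-phase genes, the 27 mitotic genes and all genes tested of the log2 signal minus the mean of the 2-month arrays, for each array. Points carry the replicate number and the black line is the mean of the group. In the mitotic panel the wild type DT arrays lie at 0.41 and 0.65 and the wild type PBS arrays at -0.12 and -0.20, while the 4 ARF-DTR PBS arrays spread from -0.24 to 0.47.

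In ARF-DTR, DT against PBS gave mostly positive mitotic values of smaller size and crossed the slides. The mitotic median was 0.32, or 1.25-fold, with 25 of 27 genes positive, the S-phase median was 0.00 with 8 of 14 positive, and all genes tested had 0.00. Of the 41 members 8 passed, 7 higher and 1 lower, which is 5 mitotic genes higher, 2 S-phase genes higher and 1 lower. Among all genes 29.3% passed, 15.8% higher and 13.4% lower, so the share of members called was below that of all genes. With median scaling in place of the 75th percentile the median of all genes was 0.18, and 15 members passed as higher and 0 as lower. The split was 11 higher and 0 lower with normexp background correction and 8 and 0 with quantile normalization.

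Among the mitotic genes that rose, Bub1b gave -1.97, -2.35, -2.22 and -1.96 with PBS and -1.47, -1.87, -1.44 and -1.36 with DT in ARF-DTR. Its groups did not overlap, and it rose by 0.59 ± 0.13 (limma, adjusted p = 0.00662). Prc1, which bundles the microtubules of the central spindle, rose by 0.51 ± 0.17 (limma, adjusted p = 0.0329), with PBS replicates 1 and 4 at 0.20 and 0.13 above DT replicate 2 at 0.09. Ect2, the exchange factor that starts the cleavage furrow, rose by 0.48 ± 0.14 (limma, adjusted p = 0.0211), and its PBS replicate 4 (-1.48) was above DT replicate 2 (-1.52). Gas2l3 gave -2.96, -3.31, -3.38 and -2.98 with PBS and -2.67, -2.74, -2.76 and -2.77 with DT, and Ube2c, the E2 enzyme of the anaphase-promoting complex, gave -0.73, -1.04, -1.08 and -0.96 against -0.57, -0.69, -0.53 and -0.51. In both, all DT arrays were above all PBS arrays, by 0.42 ± 0.13 for Gas2l3 (limma, adjusted p = 0.0254) and 0.38 ± 0.13 for Ube2c (limma, adjusted p = 0.0468). When each of the 8 arrays was left out in turn, Bub1b passed every time, while Ect2 was lost in 3 cases, Gas2l3 in 4, Prc1 in 5 and Ube2c in 6. Each of these 4 genes was lost without PBS replicate 3, DT replicate 1 or DT replicate 3.

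Of the S-phase genes, E2f1, the activating E2F factor, gave -0.25, -0.56, -0.55 and -0.30 with PBS and -0.11, -0.15, -0.06 and -0.08 with DT, a rise of 0.32 ± 0.09 without overlap (limma, adjusted p = 0.0145). E2f7 rose by 0.39 ± 0.12 (limma, adjusted p = 0.0273), but its second probe was lower, the mean of both gave -0.02, and the call was lost without 4 of the 8 arrays (PBS replicates 2 and 3, DT replicates 1 and 4). Tyms, thymidylate synthase, gave -2.19, -2.41, -2.34 and -2.39 with PBS and -2.60, -2.83, -2.56 and -2.67 with DT and fell by 0.33 on the log2 scale (SE 0.09, limma adjusted p = 0.0155), a call lost under median scaling, normexp and quantile normalization. Tyms was also the single member called between the genotypes with PBS, higher in ARF-DTR by 0.44 ± 0.11 (limma, adjusted p = 0.0129, across the slides; lost without wild type PBS replicate 1), where 23.6% of all genes passed and 10.9% passed as higher. In that comparison the mitotic median was 0.26 (25 of 27 positive) and the S-phase median -0.03. The mitotic median there was 0.13 without ARF-DTR PBS replicate 1 and 0.40 without ARF-DTR PBS replicate 2. The Tyms wild type arrays, at -2.84 and -2.72 with PBS and -2.89 and -2.65 with DT, were near the ARF-DTR DT arrays of the same slide, and the change of Tyms with DT in wild type was 0.01 ± 0.13. Mcm2 (-0.22 ± 0.12), Mcm5 (-0.01 ± 0.16) and Pcna (0.00 ± 0.08) did not pass.

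The proliferation markers themselves did not pass with DT in ARF-DTR, and their PBS arrays were far apart. Mki67 gave 1.81, 0.77, 1.04 and 1.51 with PBS and 1.58, 1.23, 1.74 and 1.88 with DT (0.32 ± 0.22, limma adjusted p = 0.283). Top2a gave -1.14, -2.41, -1.89 and -1.55 with PBS and -1.29, -1.83, -1.27 and -0.96 with DT (0.41 ± 0.24, limma adjusted p = 0.217). Ccnb1 gave -1.06, -2.39, -1.73 and -1.17 with PBS and -1.13, -1.60, -0.93 and -0.96 with DT (0.43 ± 0.26, limma adjusted p = 0.234). In each of the 3 genes PBS replicate 1 was as high as or above some DT arrays and PBS replicate 2 was the lowest array of both groups. Cdk1 had the smallest difference of these, with -1.20, -2.22, -1.77 and -1.48 against -1.43, -1.94, -1.49 and -1.44 (0.09 ± 0.20, limma adjusted p = 0.751).

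**Figure D3:**
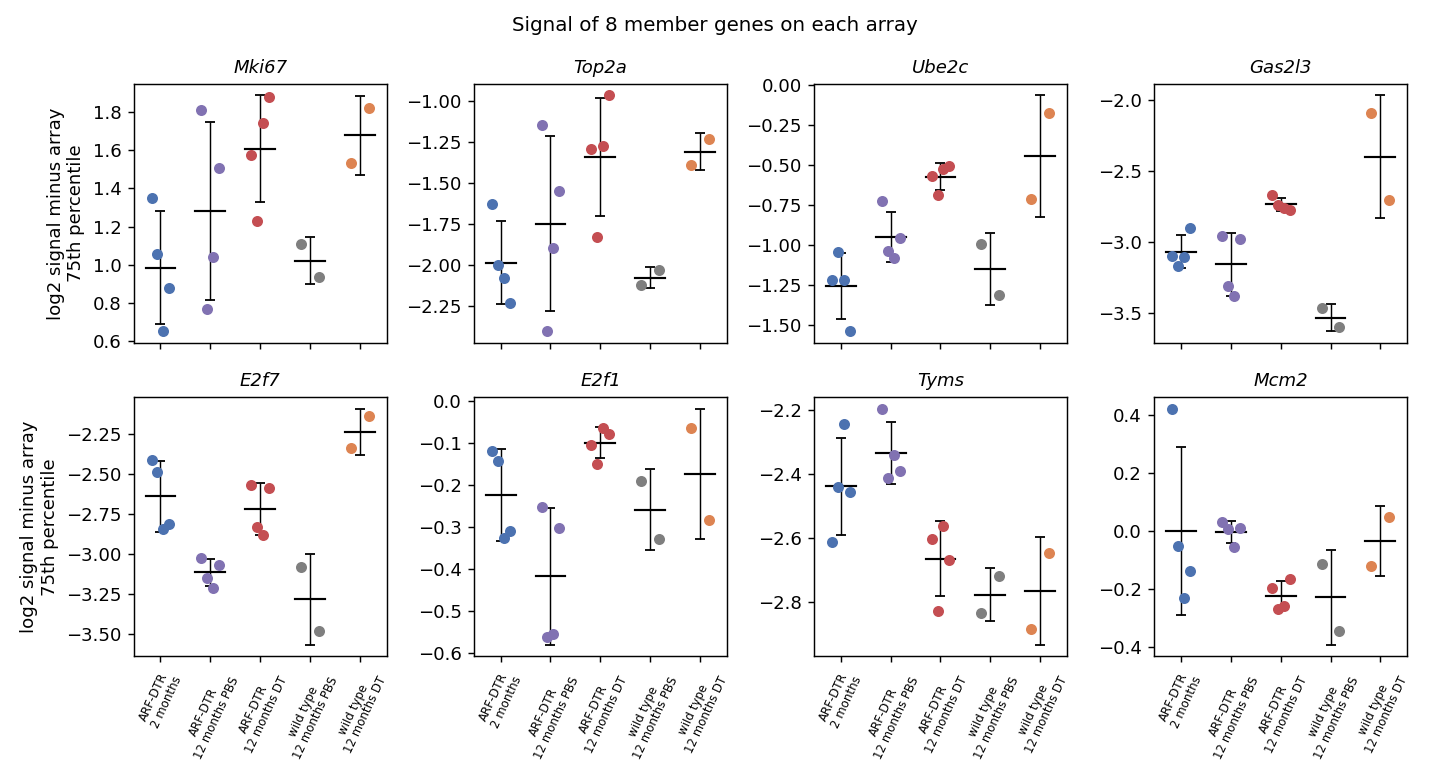
Log2 signal minus the 75th percentile of the array for 8 member genes on each of the 16 arrays, with the mean and SD of each group in black; each panel has its own vertical scale. Gas2l3 and Ube2c have DT arrays above the PBS arrays of the same genotype, Mki67 and Top2a have widely spread ARF-DTR PBS arrays, and Tyms and Mcm2 have no rise with DT in ARF-DTR.

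Most mitotic genes had their highest and lowest values on the same arrays of a group. In ARF-DTR PBS lung, replicate 1 was the highest of the 4 arrays for 24 of 27 mitotic genes and replicate 2 the lowest for 24 of 27. At 2 months, replicate 1 was the highest for 23 of 27 mitotic and 13 of 14 S-phase genes. In ARF-DTR DT lung, replicate 2 was the lowest for 20 of 27 mitotic genes. The median SD over the 4 PBS arrays was 0.33 for the mitotic genes, 0.14 for the S-phase genes and 0.13 for all genes tested, and at 2 months it was 0.24, 0.22 and 0.14. Kif11, the motor that separates spindle poles, had the widest spread with PBS, at -2.94, -4.61, -4.06 and -3.91 (SD 0.70), and Foxm1 the narrowest of the mitotic genes (SD 0.13). The DT change of the mitotic genes in ARF-DTR depended on these arrays, with a median of 0.15 without PBS replicate 2 and 0.45 without PBS replicate 1. The number of members called lay between 3 and 11 without 1 array, at 3 without PBS replicate 3 or DT replicate 1, 4 without PBS replicate 2 or DT replicate 3 and 5 without DT replicate 4.

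The DT comparisons in the 2 genotypes share no array, and their values could be set side by side. Of the 27 mitotic genes 25 were positive in both, and 26 of 27 had the larger value in wild type, where 45.5% of all genes did. Of the 14 S-phase genes 7 were positive in both. Across the members, Pearson's r between the 2 changes was 0.43 for the mitotic genes, 0.52 for the S-phase genes, 0.65 for all 41 and 0.23 for all genes tested, where genes of 1 array share its RNA and are not independent. In the test of the difference between the genotypes, 0 of 41 members passed (limma interaction term), where 2.11% of all genes passed, and 5 had an unadjusted p under 0.05, against 21.2% of all genes. The interaction was -0.72 ± 0.22 for Gas2l3 (adjusted p = 0.101), -0.65 ± 0.21 for E2f7 (adjusted p = 0.112) and -0.82 ± 0.35 for Melk, a kinase of G2 and mitosis (adjusted p = 0.203). The second kept Gas2l3 probe gave an interaction of 0.075, the other sign, and the second kept E2f7 probe gave -0.50. Without wild type DT replicate 2, which leaves 1 wild type DT array, the interaction of the Gas2l3 probe used was -1.02.

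**Figure D4:**
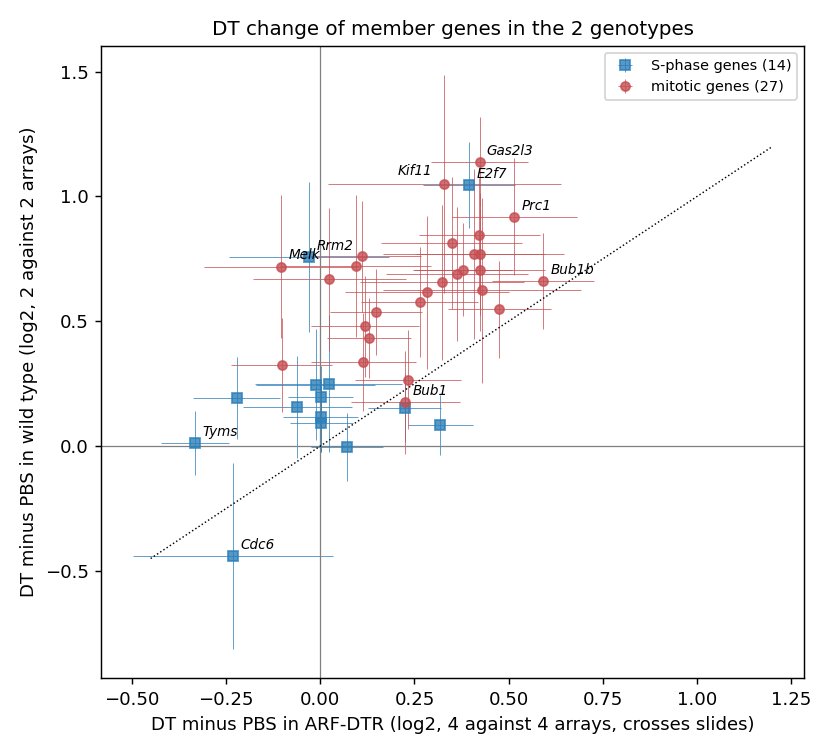
Log2 change with DT in ARF-DTR (horizontal, 4 against 4 arrays on different slides) and in wild type (vertical, 2 against 2 arrays of 1 slide) for the 14 S-phase and 27 mitotic genes; bars are standard errors of the fit and the dotted line marks equal change. All but 1 of the mitotic genes lie above the line, and Gas2l3 and E2f7 have the changes called in wild type.

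Markers of other cell types also differed between DT and PBS arrays, in both directions. The signals of a list were summed and then put on the log2 scale, so its brightest markers count most, and single markers are not given. Of 15 marker lists, this sum was higher for 2 and lower for 8 on the DT arrays without overlap in wild type. Of all single genes 18.8% were higher without overlap there, and the share lower is not given here. In ARF-DTR, where DT and PBS arrays lie on different slides, 4 lists were higher and 1 lower without overlap. The 6 of 6 alveolar macrophage markers kept summed to 7.49 to 7.64 with PBS and 8.02 to 8.68 with DT in wild type, and to 7.17 to 8.06 against 8.03 to 8.51 in ARF-DTR. The 5 of 5 plasma cell markers summed to 6.54 to 6.92 against 7.26 to 7.48 in wild type and 6.15 to 7.10 against 7.12 to 7.71 in ARF-DTR. The 4 of 4 smooth muscle and pericyte markers were lower with DT in both genotypes, at 5.50 to 5.54 against 5.05 to 5.09 in wild type and 5.43 to 5.72 against 4.87 to 5.08 in ARF-DTR. In wild type, sums were also lower with DT for endothelium (6.79 to 6.90 against 6.49 to 6.51), NK cells (4.66 to 4.81 against 3.41 to 4.11) and neutrophils (8.34 to 8.42 against 6.41 to 8.10). Alveolar type 2 markers summed to 9.54 to 9.72 with PBS and 9.99 to 10.19 with DT in ARF-DTR, and to 9.88 to 10.05 against 9.88 to 10.06 in wild type. Across the ARF-DTR PBS replicates 1 to 4, with mitotic medians of 0.47, -0.24, -0.08 and 0.28 relative to 2-month lung, the plasma cell sums were 7.10, 6.15, 6.73 and 7.06, and both ranked the arrays in the same order. The T cell sums there, at 4.52, 4.02, 4.15 and 4.29, ranked the arrays in that order too. The alveolar macrophage sums, at 7.34, 7.34, 7.17 and 8.06, and the B cell sums, at 4.82, 4.36, 5.16 and 4.87, ranked them otherwise. So did all the remaining marker lists. Whether a match in the order of 4 arrays exceeds chance was not tested. Every marker of the lists named here was well above background on 4 or more arrays, and the part of these cells in the values of the mitotic genes was not tested.

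With age in ARF-DTR, compared within slide 1, 1 of the 41 members passed, where 6.14% of all genes did and 3.42% passed as lower. The 12-month mice had PBS injections and the 2-month mice none, and the groups lay in different array rows. Age, injection and row cannot be told apart here. The member called is given next. E2f7 gave -2.41, -2.49, -2.84 and -2.81 at 2 months and -3.02, -3.15, -3.21 and -3.07 at 12 months with PBS. The groups did not overlap, and E2f7 fell by 0.47 on the log2 scale (SE 0.12, limma adjusted p = 0.0361). The second E2f7 probe gave -0.11, and the call was lost when 6 of the 8 arrays were left out one at a time, all but 2-month replicates 3 and 4. The other E2F factors did not pass, with E2f1 at -0.19 ± 0.09 (limma, adjusted p = 0.222) and E2f8 at -0.09 ± 0.19, a change smaller than its standard error. The mitotic median was 0.09, at -0.02 without PBS replicate 1 and 0.21 without PBS replicate 2, and the S-phase median was -0.03, beside -0.03 for all genes tested. Mki67 (0.30 ± 0.22), Top2a (0.24 ± 0.24), Ccnb1 (0.09 ± 0.26), Cdk1 (0.16 ± 0.20), Mcm2 (-0.00 ± 0.12), Mcm5 (0.05 ± 0.16) and Pcna (-0.04 ± 0.08) did not pass.

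DT-treated 12-month ARF-DTR lung against 2-month ARF-DTR lung, across the slides, had 8 of 41 members higher and 0 lower, all 8 mitotic, where 30.7% of all genes passed and 14.7% passed as higher. The largest was Ube2c, which rose by 0.68 ± 0.13, from -1.22, -1.05, -1.22 and -1.54 (limma, adjusted p = 0.00199), with all DT arrays above all 2-month arrays. Prc1 (0.62 ± 0.17, limma adjusted p = 0.0126), Tpx2, which activates Aurora A on the spindle (0.61 ± 0.16, limma adjusted p = 0.0113), and Ect2 (0.44 ± 0.14, limma adjusted p = 0.0279) also had groups without overlap. The other 4 were Mki67 (0.62 ± 0.22, limma adjusted p = 0.0463), Ccna2, the cyclin of S phase and G2 (0.57 ± 0.19, limma adjusted p = 0.0334), Nusap1, a spindle microtubule protein (0.55 ± 0.19, limma adjusted p = 0.0423), and Cenpe, the kinetochore motor (0.50 ± 0.17, limma adjusted p = 0.0447). Ube2c, Tpx2 and Prc1 passed without any 1 of the 8 arrays, while Nusap1 was lost in 5 cases and Ect2, Mki67, Ccna2 and Cenpe in 6 each. The mitotic median was 0.33 and the S-phase median -0.05. Without 1 array between 3 and 13 members passed, 13 without 2-month replicate 1 and 3 or 4 without 2-month replicate 2, 3 or 4 or DT replicate 1, 3 or 4. This comparison shares the DT arrays with the preceding ones and is no separate evidence.

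**Figure D5:**
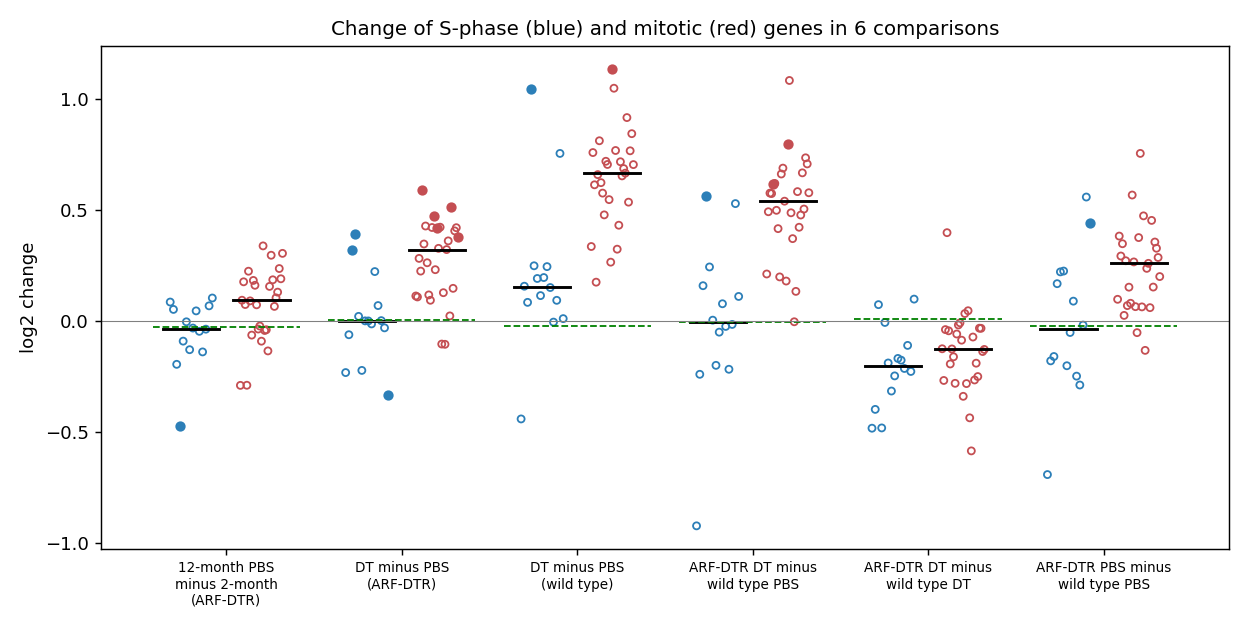
Log2 change of each S-phase (blue) and mitotic (red) gene in 6 comparisons, with filled points for an adjusted p under 0.05, black lines for the median of the genes and the green dashed line for the median of all genes tested. The mitotic median is 0.67 with DT in wild type, 0.54 for ARF-DTR DT against wild type PBS, 0.32 with DT in ARF-DTR and 0.09 with age, while the S-phase medians lie between -0.20 and 0.16.

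Genes of the same processes outside the 44 were taken from fixed lists. Of 45 other mitosis genes tested the median with DT was 0.50 in wild type (41 positive, 0 called) and 0.20 in ARF-DTR (33 positive, 2 called higher and 2 lower, where 15.8% and 13.4% of all genes were). In ARF-DTR the condensin gene Ncaph (0.41 ± 0.12, limma adjusted p = 0.0210) and Hmmr, a spindle assembly factor (0.22 ± 0.07, limma adjusted p = 0.0236), rose, and Kif14 (-0.84 ± 0.10, limma adjusted p = 0.000192) and Cep55 (-0.39 ± 0.09, limma adjusted p = 0.00598), both of cytokinesis, fell. Of 33 other replication genes the medians were 0.15 in wild type (0 called) and 0.07 in ARF-DTR (5 higher, 1 lower, so that the share called in both lists was below the 29.3% of all genes), with Orc6, of the origin recognition complex, at 0.31 ± 0.05 (limma, adjusted p = 0.00150) and the helicase assembly gene Gins2 at 0.57 ± 0.14 (limma adjusted p = 0.00858). Of 30 RB, DREAM and G1 genes the medians were 0.00 and 0.05. Cdkn1a, the cyclin-dependent kinase inhibitor p21, rose with age by 0.80 ± 0.11 (limma, adjusted p = 0.00123) and was higher in DT-treated ARF-DTR than in DT-treated wild type lung by 0.70 ± 0.14 (limma, adjusted p = 0.0376), beside mitotic medians of 0.09 and -0.12 in these comparisons.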

How the data were processed

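Per the labels, total RNA of lung homogenates was labelled with Cy3 and hybridised to 1 array per sample. The deposited files hold intensity values from Agilent Feature Extraction (the submitters' processing notes give version 10.10.1.1), background-subtracted and not scaled between arrays, with probes placed on mm9 per the file headers. The authors' series table holds log2 values, which equalled these signals after log2 and subtraction of the array's 75th percentile (r = 1). Other upstream steps: not given in the sources used here. Control spots and outlier spots (105 to 171 per array) were left out, 0 spots were saturated, log2 signals were scaled to the 75th percentile, and probes well above background on at least 4 of 16 arrays were kept (37037 of 55681). The brightest kept probe stood for a gene.

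Tests used limma 3.58.1 under R 4.3.3, 1 mean per group over all 16 arrays, two-sided, with Benjamini-Hochberg adjustment over 25675 genes at 0.05. Values after ± beside a change are standard errors. The fit was tested on simulated data. Alternatives were normexp (offset 50), median scaling, quantile normalization, the series table, other filters, the mean of probes, a replicate block, only the arrays compared, and each array left out. The members, gene lists, tests and alternatives were chosen with earlier results of these data known. Genes named were Mki67, Top2a, Ccnb1, Cdk1, Mcm2, Mcm5, Pcna and E2f1, every member past the threshold, and up to 4 genes of each other list. Members named beyond these (Bub1, Foxm1, Rrm2, Cdc6, Mcm3, Melk, Kif11, E2f8) were chosen after their values were seen, as extremes of their group. The number of arrays limits the precision.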

Additional observations from a re-analysis of the deposited data

Results flagged for a closer look

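Among the 123 sets of 4 arrays examined (41 genes in 3 groups), 2 held an array far from the other 3 by Dixon's test, or 1.63%, where chance gives about 1 in 20. Cdk1 in ARF-DTR DT replicate 2 was at -1.94, with the other 3 arrays between -1.49 and -1.43. Foxm1 in ARF-DTR at 2 months, replicate 1, was at -2.80, with the other 3 arrays between -3.31 and -3.23. These are also the arrays that were lowest for 20 of 27 and highest for 23 of 27 mitotic genes in their groups.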

How the results depend on the processing

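Of 765 values of 85 gene results under the 9 other settings, 720 kept their side of the threshold and, where called, their direction. Among the rest 38 calls were lost, 6 were gained and 1 turned its sign: E2f7 with DT in ARF-DTR, -0.0172 with the mean of the probes of a gene. Without 1 array, 537 of 616 kept both, 76 were lost and 3 gained. The cause of these losses was not tested. Signs of values that did not pass were not counted, and some turned. Ccnb1 with age, at 0.09 in the main fit, went as low as -0.08 without 1 array. The age call (1) went to 0 with no filter on dim probes, with the mean of the probes, and with only the arrays compared. With DT in ARF-DTR, 15 members passed under median scaling in place of 8. With DT in wild type, 0 in place of 2 passed with normexp, the mean of the probes, and only the arrays compared. Between DT-treated and 2-month lung, 15 passed with normexp and 5 with no filter, in place of 8. Between genotypes with PBS, 2 passed in place of 1 with no filter, the filter on all 16 arrays, the mean of the probes, and only the arrays compared. For ARF-DTR DT against wild type PBS, 1 in place of 3 passed with normexp, no filter, the mean of the probes, and only the arrays compared, and 5 passed with median scaling and with the filter on all 16 arrays. Without 1 array the counts ranged from 0 to 1 for age, 3 to 11 for DT in ARF-DTR, 0 to 1 for DT in wild type, 0 to 1 for the interaction, 3 to 13 for DT-treated against 2-month, 0 to 3 between genotypes with PBS, 0 to 0 for ARF-DTR DT against wild type DT, and 0 to 4 for ARF-DTR DT against wild type PBS. Over the 9 other settings the mitotic median, relative to all genes, lay between 0.56 and 0.70 with DT in wild type, 0.43 and 0.58 for ARF-DTR DT against wild type PBS, 0.22 and 0.37 with DT in ARF-DTR, and 0.08 and 0.12 with age.

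The labels number replicates in each group. Over all genes, the deviations of same-numbered arrays correlated with a median r of 0.06 over 26 pairs (7 over 0.1). For 74 pairs of other numbers the median was -0.01 (8 over 0.1). The highest r, 0.33, was between ARF-DTR PBS replicate 2 and ARF-DTR DT replicate 2, each the lowest array of its group for most mitotic genes. With a replicate block 1 member passed with age, 7 with DT in ARF-DTR, 2 with DT in wild type, 0 in the interaction, 8 for DT-treated against 2-month, 1 between genotypes, 0 against wild type DT and 2 against wild type PBS. Wild type groups of 2 arrays limit the precision of every comparison that uses them.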

Other observations

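Outside the 44 genes, Kif14, a kinesin of cytokinesis, and E2f4, the E2F factor of the DREAM complex, had their largest differences where arrays of different slides were compared. Kif14 changed by -0.84 ± 0.10 with DT in ARF-DTR, by -0.92 ± 0.10 for DT-treated against 2-month lung and by 0.74 ± 0.12 between genotypes with PBS, and E2f4 by -0.81 ± 0.08, -0.60 ± 0.08 and 0.87 ± 0.09. Within slides, Kif14 differed by -0.08 ± 0.10 with age and -0.16 ± 0.14 with DT in wild type, and E2f4 by 0.21 ± 0.08 and -0.16 ± 0.11, none of which passed (limma). The 8 Kif14 values lay between -3.68 and -3.29 on slide 1 and between -4.45 and -4.05 on slide 2, and the 8 E2f4 values between -1.16 and -0.84 and between -1.98 and -1.58. Slide and group cannot be told apart in the first 3 comparisons.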
